A study of Mus musculus with 24 samples.

Results

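Transcripts that carry a RIKEN symbol were followed across macrophages of 2 genotypes and 3 activation states. The members were the rows of the count table whose symbol ends in Rik and whose raw counts summed to at least 240 over the 24 libraries, leaving out 0610040F04Rik and 5830432E09Rik. They were 154 of 1817 Rik-named rows and of 24557 rows in all. The members were chosen by their summed raw count, so their levels are given as a description, without a test. Just inside the limit were 4932702P03Rik with 241 counts, 4930520O04Rik with 243 and 3200001D21Rik with 250, and just outside it were 2410006H16Rik with 237, 1110019D14Rik with 233 and 3010003L21Rik with 224. Of the 1817 Rik-named rows, 1122 had no count in any library.

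The cells were bone marrow-derived macrophages (BMDMs), grown from mouse marrow for 7 days in 10 ng/ml M-CSF, a growth factor for macrophages. Ltb4r2-/- cells came from mice that lack BLT2, a receptor for leukotriene B4, in all tissues, on a C57BL/6J background, and WT cells came from littermates. The 6 groups were Ltb4r2-/- M1 and WT M1 (10 ng/ml LPS plus 25 ng/ml IFN-γ for 16 h), Ltb4r2-/- M2 and WT M2 (10 ng/ml IL-4 for 16 h), and Ltb4r2-/- M0 and WT M0 (neither). Each group had 4 libraries labelled biological replicates, and all 6 groups shared the M-CSF culture.

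A RIKEN symbol is a clone name. It was given to a mouse full-length cDNA before its product was known, and it stays in use until a locus is characterized. Many such loci are long non-coding RNAs, which are spliced and polyadenylated as messenger RNAs are but code for no known protein. A frequent kind is the antisense RNA, transcribed from the strand opposite a protein-coding gene and sharing sequence with its exons. In macrophages, LPS acts through NF-κB and AP-1 and IL-4 through STAT6, and each of these factors is known to act on non-coding loci as well as on coding ones.

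Libraries held 427825 to 729580 counts over 5933 to 7315 genes with a count. These totals are low. A count of 0 allows up to 3 counts, and intervals of this kind cover counting error only. Ltb4r2 had 0 counts in all WT libraries and 0 to 5 in the libraries labelled Ltb4r2-/-, so its counts do not check the genotype labels. Of 12 macrophage markers, a mean of 10 counts or more was found for 8 to 10 in each group, although Adgre1 and Csf1r, which define the lineage, had 7 to 70 and 7 to 71 counts in a library. The 12 summed to 808 to 1167 CPM in Ltb4r2-/- M1 and 1036 to 1373 CPM in WT M1, and to 866 to 936 CPM in Ltb4r2-/- M2 and 686 to 1157 CPM in WT M2, against 1967 to 2204 CPM in Ltb4r2-/- M0 and 2013 to 2319 CPM in WT M0, so that every M0 library lay above every M1 and M2 library. Of 8 M1-like markers (Nos2, Cxcl9 and others) 6 had that mean in both M1 groups, and of 8 M2-like markers 5 had it in both M2 groups. The lists for neutrophils, lymphocytes (T, NK and B), mast cells and stromal cells had no gene at that mean, and the erythroid list had 1, in Ltb4r2-/- M0. As the macrophage marker Cd68 itself had 2 to 41 counts in a library, a marker under that mean does not show a cell type absent. The 4 dendritic cell markers summed to 669.8 to 1079 CPM in Ltb4r2-/- M1 and 487 to 819 CPM in WT M1, against 28.3 to 109 CPM in Ltb4r2-/- M2, 42.4 to 52.9 CPM in WT M2, 32.1 to 45.5 CPM in Ltb4r2-/- M0 and 20.2 to 33.7 CPM in WT M0. In every group 2 or 3 of these 4, Flt3 among them, were at 0 counts. In both M1 groups 3 of the 4 were at 0, so the M1 sums are those of 1 gene. The part of the macrophage and dendritic cell lists in the state results was not tested.

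What the 154 rows measure depends on strand. In GENCODE M21 (GRCm38, the assembly also called mm10), 141 members were placed, 139 by symbol and 2 by Entrez ID. The annotation calls 65 of them antisense, 31 protein-coding, 28 processed transcripts, 11 lincRNAs, 2 bidirectional-promoter lncRNAs and 2 TEC loci (to be experimentally checked), and 2 are pseudogenes. An annotated exon of another gene lay on the opposite strand over an exon of 132 of these 141 members (93.6%). The same held for 21.4% of the 1555 Rik-named rows that were not members, for 24.1% of all 24193 placed genes and for 61.7% of the 3011 placed genes among those tested across the 24 libraries. The shared stretch ran over 4 to 5142 bp, with a median of 375 bp. A further 11 members were placed only by their RefSeq span, 10 of them over an opposite-strand exon, and 1700023D09Rik and 1700055D16Rik were not placed.

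The counts of each member were then set beside those of the gene whose exons overlapped it most on the opposite strand. For 121 of the 132 members that gene had a row of its own. It held fewer counts than the RIKEN-named row in 113 of 121 pairs, and the RIKEN-named row held over 10 times as many in 86. The members had been chosen for a sum of at least 240 counts, and the partner genes had no such limit. This comparison therefore leans toward the members by the choice itself and is a description only. The members of these pairs summed to 1507823 counts and their partner genes to 76935. The 8 exceptions included H2-T22, a class Ib MHC gene with 3456 counts against 1447 for A930015D03Rik, and Kif3c, a kinesin motor gene with 6325 against 1110002L01Rik with 3786. The libraries were labelled strand-specific, how HTSeq treated strand is not given in the sources used here, and Actb, an abundant mRNA of every cell, had 30 to 133 counts in a library. From which strand the counted reads came was not tested. A value below is therefore the count assigned to a RIKEN-named row and not shown to be a non-coding RNA's own level.

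**Figure D1:**
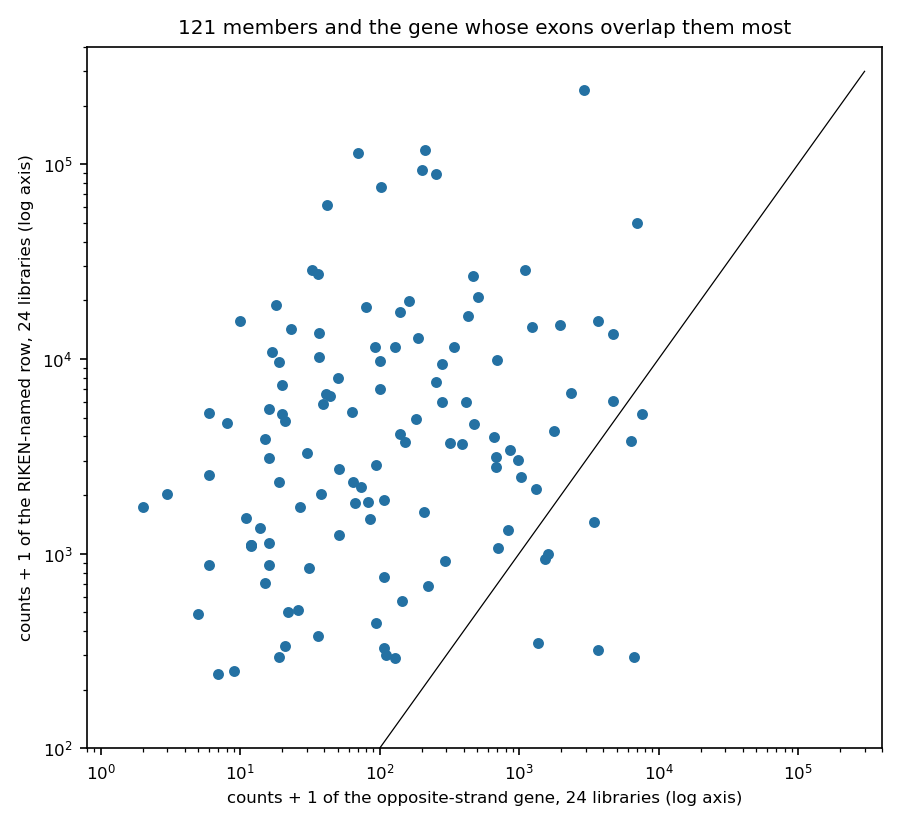
Summed counts over 24 libraries of each RIKEN-named row (y axis, counts + 1, log scale) against those of the gene with the largest opposite-strand exon overlap (x axis, counts + 1, log scale), 1 point for each of 121 pairs, with the line of equal counts. The RIKEN-named row lies above the line in 113 pairs. Only the RIKEN-named rows were chosen for their counts (at least 240).

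The members held 1594867 counts, 12.5% of all counts. Counts per row were uneven and are not scaled to length. The first 5 rows made up 41.2% of the members' counts, 33 members had 10000 counts or more, 40 had under 1000, and the median was 2807 against 455 for all genes tested. The highest was 3110062M04Rik with 241683 counts, which GENCODE names Cyren, a regulator of the repair of DNA breaks by end joining (chr6:34871771-34878060, minus strand). It is protein-coding and shares 2168 bp of exon with Tmem140, a transmembrane protein gene. Next were 1700071M16Rik with 118652 counts (antisense, 319 bp shared with Pla2g7, which encodes platelet-activating factor acetylhydrolase), 4930404N11Rik with 113785 (protein-coding, 1179 bp shared with Mfsd12, a lysosomal transporter gene), 1110051M20Rik with 93216 (protein-coding, 1380 bp shared with Arfgap2, a regulator of ARF GTPases) and 0610039K10Rik with 89121 (antisense, 134 bp shared with Serinc3, a multipass membrane protein gene). The Tmem140, Pla2g7, Mfsd12, Arfgap2 and Serinc3 rows themselves had 2899, 212, 69, 202 and 252 counts. Of these 5 members, 1110051M20Rik varied least between states, averaging 8929 ± 679.6 CPM (TMM-scaled counts) in Ltb4r2-/- M1 and 8746 ± 508 CPM in WT M1, 7640.4 ± 140.2 CPM in Ltb4r2-/- M2 and 7339.9 ± 453 CPM in WT M2, and 6216 ± 787 CPM in Ltb4r2-/- M0 and 6444 ± 603 CPM in WT M0 (SD, n = 4 each).

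As a share of a library's counts, the members together took 13.6 to 14.4% in Ltb4r2-/- M1 and 13.70 to 14.05% in WT M1, 10.8 to 11.5% in Ltb4r2-/- M2 and 10.9 to 11.4% in WT M2, and 11.8 to 12.2% in Ltb4r2-/- M0 and 11.8 to 11.9% in WT M0. In this sum both M1 groups lay above every M0 and M2 library. Abundant rows weigh on it, among them 3110062M04Rik and 1700071M16Rik. 1700071M16Rik had 10751 to 16722 counts in M1 libraries, against 590 to 2095 in M2 and M0 libraries. The share without these rows was not computed, so a higher M1 share is not shown for the other members. The single row 3110062M04Rik took 3.26 to 3.72% of counts in Ltb4r2-/- M1 and 3.39 to 3.83% in WT M1, 0.324 to 0.657% in Ltb4r2-/- M2 and 0.406 to 0.724% in WT M2, and 1.19 to 1.41% in Ltb4r2-/- M0 and 1.29 to 1.49% in WT M0.

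The start regions of 3 members with large state changes are printed here for reference to the values that follow. RefSeq (GRCm38.p6) gave windows of 250 bases before to 50 bases after the start for 117 of the 154 members, 125 windows in all. Capitals mark matches, on either strand, to GAAA and GAAA set 2 bases apart (ISRE), TTC and GAA set 4 bases apart (the spacing favoured by STAT6), TGANTCA (AP-1), GGGNNTTCC (part of an NF-κB site) or GAGGAAG (PU.1). Matches to different motifs can overlap. All 3 windows lie on the minus strand, at chr8:94435054-94435353 (9330175E14Rik, STAT6 letters), chr17:43591460-43591759 (1700071M16Rik, STAT6 letters) and chr7:139978706-139979005 (6430531B16Rik, AP-1 letters). The first 2 are members high in M1 and the last is high in M2. All 3 windows hold a match and are not typical of members with large state changes. The windows of 3110062M04Rik, E230013L22Rik and 9130019P16Rik hold none.
9330175E14Rik: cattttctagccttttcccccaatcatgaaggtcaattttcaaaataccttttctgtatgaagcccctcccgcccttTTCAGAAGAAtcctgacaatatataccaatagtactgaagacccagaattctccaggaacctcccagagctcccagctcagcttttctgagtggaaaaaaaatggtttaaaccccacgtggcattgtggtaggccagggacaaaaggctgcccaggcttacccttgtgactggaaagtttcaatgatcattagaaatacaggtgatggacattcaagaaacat
1700071M16Rik: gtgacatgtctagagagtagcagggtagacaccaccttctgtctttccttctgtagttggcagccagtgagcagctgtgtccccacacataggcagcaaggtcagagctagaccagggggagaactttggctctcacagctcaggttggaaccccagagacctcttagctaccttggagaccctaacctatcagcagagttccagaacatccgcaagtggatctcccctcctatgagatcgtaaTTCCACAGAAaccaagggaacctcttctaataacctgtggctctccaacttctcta
6430531B16Rik: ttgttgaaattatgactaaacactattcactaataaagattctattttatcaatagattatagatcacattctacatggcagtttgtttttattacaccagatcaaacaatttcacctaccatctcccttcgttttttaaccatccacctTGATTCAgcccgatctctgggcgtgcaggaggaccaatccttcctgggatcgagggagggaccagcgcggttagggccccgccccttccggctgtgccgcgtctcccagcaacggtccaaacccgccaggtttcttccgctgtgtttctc

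Over all 32851 windows of the RefSeq table, ISRE letters were in 3.44%, the STAT6 spacing in 6.95%, AP-1 in 7.81%, the NF-κB part in 5.82% and PU.1 in 13.6%. In the 30 windows of members that were higher in M1 than in M0 in both genotypes, the STAT6 spacing was in 3 (10.0%), PU.1 in 3 (10.0%), and ISRE, AP-1 and the NF-κB part in 0. In the 18 windows of members that were higher in M2 than in M0 in both genotypes, ISRE, AP-1 and PU.1 were in 1 each (5.56%), and the STAT6 spacing and the NF-κB part in 0. In the 32 windows of members that were lower in M1 than in M0 in both genotypes, the STAT6 spacing and AP-1 were in 4 each (12.5%), the NF-κB part and PU.1 in 2 each (6.25%) and ISRE in 1 (3.12%). In the 13 windows of members that were lower in M2 in both genotypes, AP-1 and the NF-κB part were in 1 each (7.69%) and the others in 0. Over all 125 member windows, ISRE letters were in 2.4%, the STAT6 spacing in 9.6%, AP-1 in 6.4%, the NF-κB part in 5.6% and PU.1 in 8.8%. These shares rest on few windows and are descriptions of letters, not of bound sites. The window of 1700071M16Rik starts from a RefSeq start that lies inside the GENCODE gene, and D730005E14Rik is on the plus strand in GENCODE and on the minus strand in RefSeq, the only such case among 106 members with both.

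The first comparison asked which RIKEN-named rows differed between cells given LPS plus IFN-γ and unstimulated cells. In Ltb4r2-/- cells 53 of 154 members rose in M1 (34.4%, against 27.1% of the 3047 genes tested) and 41 fell (26.6%, against 25.7%). In WT cells 45 rose (29.2%, against 26.9%) and 43 fell (27.9%, against 24.3%). The shares of members called were thus near those of all genes, or above them by under 10 percentage points, and members had more counts than a typical gene tested. Their median log2 fold change was 0.00 in Ltb4r2-/- and -0.04 in WT cells, beside 0.00 and -0.02 for all genes. Between the genotypes, whose libraries are separate, 43 members rose in both (81.1% of those in Ltb4r2-/- and 95.6% of those in WT), 38 fell in both (92.7% and 88.4%), none was called in opposite directions, and 53 were called in neither. In bulk RNA of this kind, a lower share of cells with a transcript and less of it per cell cannot be told apart.

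The balance of rises and falls in M1 depended on scaling. TMM factors were 0.726 to 0.842 in M1 libraries against 1.10 to 1.24 in M0 and 1.10 to 1.16 in M2. With scaling by total count alone the same comparison gave 28 members higher (18.2%, against 16.6% of 3047 genes) and 87 lower (56.5%, against 45%) in Ltb4r2-/- cells, and 26 higher (16.9%, against 15.6%) and 90 lower (58.4%, against 44.6%) in WT cells. The median of all genes was then -0.60 and -0.64, and members' log2 fold changes moved by a median of -0.60 and -0.62. Then 11 of the 53 and 9 of the 45 members called higher had a negative sign, the largest of them at 0.57 and 0.58 under TMM. All members that fell stayed called lower.

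Among the rows that rose in M1, 1700071M16Rik, opposite Pla2g7, had the largest change of the 5 rows with the most counts. It had 31235, 27080.4, 25646 and 32305 CPM (TMM-scaled counts) in Ltb4r2-/- M1 and 27548, 30283, 27925 and 32682 CPM in WT M1, against 1655, 1377, 1681 and 1413 CPM in Ltb4r2-/- M0 and 1509.6, 1785, 1128 and 2176 CPM in WT M0. Every M1 library lay above every M0 library, and the log2 fold change was 4.25 ± 0.24 in Ltb4r2-/- cells and 4.17 ± 0.24 in WT cells (± SE, adjusted p = 1.52e-16 and 2.62e-16). The row of Pla2g7 itself, with 212 counts in all, rose too, by 4.33 and 5.90 on the log2 scale.

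3110062M04Rik (Cyren in GENCODE) had 45808, 51629, 41431 and 48415 CPM in Ltb4r2-/- M1 and 53399, 44783, 50963 and 47149.6 CPM in WT M1, against 12581, 12579, 12173 and 9924 CPM in Ltb4r2-/- M0 and 11948, 13758, 10754 and 11542 CPM in WT M0. The groups did not overlap, with log2 fold changes of 1.99 ± 0.14 in Ltb4r2-/- cells and 2.03 ± 0.14 in WT cells (adjusted p = 6.68e-14 and 4.37e-14). Its partner gene Tmem140 went the other way, with log2 fold changes of -2.16 in Ltb4r2-/- and -2.27 in WT cells. The member and its partner therefore did not move together here.

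9330175E14Rik, a lincRNA with 78 bp of exon opposite Nlrc5, a regulator of MHC class I transcription, had 519, 533, 519.9 and 625 CPM in Ltb4r2-/- M1 and 555, 404, 512 and 578 CPM in WT M1, against 39.9, 27.5, 35.1 and 23.5 CPM in Ltb4r2-/- M0 and 22.5, 27.9, 23.3 and 41.7 CPM in WT M0. It rose by 4.13 ± 0.19 in Ltb4r2-/- cells and 4.16 ± 0.20 in WT cells on the log2 scale (adjusted p = 1e-18 and 2.01e-18). C920021L13Rik, an antisense row opposite BC028528, averaged 10399 ± 1141 CPM in Ltb4r2-/- M1 and 11122 ± 782 CPM in WT M1, against 2109 ± 197 CPM in Ltb4r2-/- M0 and 2369.7 ± 204 CPM in WT M0 (SD, n = 4 each), and rose by 2.30 ± 0.10 in Ltb4r2-/- cells and 2.23 ± 0.10 in WT cells. Its BC028528 row had 41 counts in all.

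4933416M07Rik, antisense to Rab11fip1, an adaptor of the recycling endosome, averaged 1954 ± 253 CPM in Ltb4r2-/- M1 and 1682 ± 247 CPM in WT M1, against 259 ± 20.6 CPM in Ltb4r2-/- M0 and 234 ± 13.6 CPM in WT M0, with log2 fold changes of 2.91 ± 0.13 in Ltb4r2-/- cells and 2.84 ± 0.13 in WT cells. E230013L22Rik, a bidirectional-promoter lncRNA over Rab20, a GTPase of phagosome maturation, rose by 2.01 ± 0.12 in Ltb4r2-/- cells and 1.90 ± 0.12 in WT cells, beside 1.31 and 0.91 for the Rab20 row. D730005E14Rik overlaps Apobec3, a cytidine deaminase of antiviral defence, and rose by 2.61 ± 0.15 in Ltb4r2-/- cells and 2.48 ± 0.15 in WT cells (adjusted p = 1.05e-16 and 4.14e-16). In that member the levels were 2653, 2441, 2169 and 2552 CPM in Ltb4r2-/- M1 and 2536, 2285, 2187 and 2519 CPM in WT M1, against 425, 389.7, 468 and 324 CPM in Ltb4r2-/- M0 and 407, 394, 348 and 567 CPM in WT M0. The unplaced 1700055D16Rik rose by 2.98 ± 0.23 in Ltb4r2-/- cells and 3.26 ± 0.24 in WT cells.

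A530032D15Rik had the largest log2 fold changes of all members, 5.86 ± 0.59 in Ltb4r2-/- cells and 6.49 ± 0.66 in WT cells, and is named here after its values were seen. Its counts were 29 to 56 in Ltb4r2-/- M1 libraries and 35 to 53 in WT M1 libraries, against 0 to 3 in Ltb4r2-/- M0 and 0 to 2 in WT M0. With so few M0 counts the size of this fold is poorly fixed.

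The largest fall in M1 was that of 9130019P16Rik, a processed transcript sharing 552 bp of exon with Chn2, which encodes the Rac GTPase-activating protein β2-chimaerin. It had 0, 2, 8 and 2 counts in Ltb4r2-/- M1 and 1, 2, 4 and 2 in WT M1, which is 0, 4.53, 18.7 and 5.71 CPM and 2.17, 3.62, 10.4 and 4.88 CPM, against 383, 452, 438 and 376 CPM in Ltb4r2-/- M0 and 404, 451, 369 and 383 CPM in WT M0. The log2 fold change was -5.76 ± 0.29 in Ltb4r2-/- cells and -6.26 ± 0.30 in WT cells (adjusted p = 4.02e-18 and 2.01e-18), and the Chn2 row had 43 counts in all.

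9530027J09Rik, a lincRNA row over Utp14a, a ribosome biogenesis gene, had 374, 299, 246 and 274 CPM in Ltb4r2-/- M1 and 275, 458, 325 and 434 CPM in WT M1, against 1506, 1392, 1584 and 1255 CPM in Ltb4r2-/- M0 and 1408, 1386, 1299 and 1503 CPM in WT M0, a log2 change of -2.26 ± 0.14 in Ltb4r2-/- cells and -1.90 ± 0.13 in WT cells. B430010I23Rik (opposite Mtus1, a microtubule-associated tumour suppressor gene) fell by 2.22 ± 0.15 in Ltb4r2-/- cells and 2.02 ± 0.15 in WT cells on that scale. E230016M11Rik (opposite Gadd45a, a growth-arrest and DNA-damage gene) had log2 fold changes of -1.73 ± 0.15 in Ltb4r2-/- cells and -1.99 ± 0.15 in WT cells, and 1700113A16Rik (opposite Mef2d, a transcription factor gene) of -1.49 ± 0.10 in Ltb4r2-/- cells and -1.19 ± 0.10 in WT cells. 0610039K10Rik, opposite Serinc3, averaged 4904 ± 172 CPM in Ltb4r2-/- M1 and 4548 ± 419 CPM in WT M1, against 11962 ± 486 CPM in Ltb4r2-/- M0 and 10240.2 ± 844 CPM in WT M0. The remaining 2 of the 8 members named for a fall were 1700018L02Rik (opposite the adenylate kinase gene Ak3), with log2 fold changes of -1.84 ± 0.22 in Ltb4r2-/- cells and -2.25 ± 0.23 in WT cells, and 4931402G19Rik (over Ganc, a neutral α-glucosidase gene), with -1.55 ± 0.17 in Ltb4r2-/- cells and -1.09 ± 0.17 in WT cells.

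**Figure D2:**
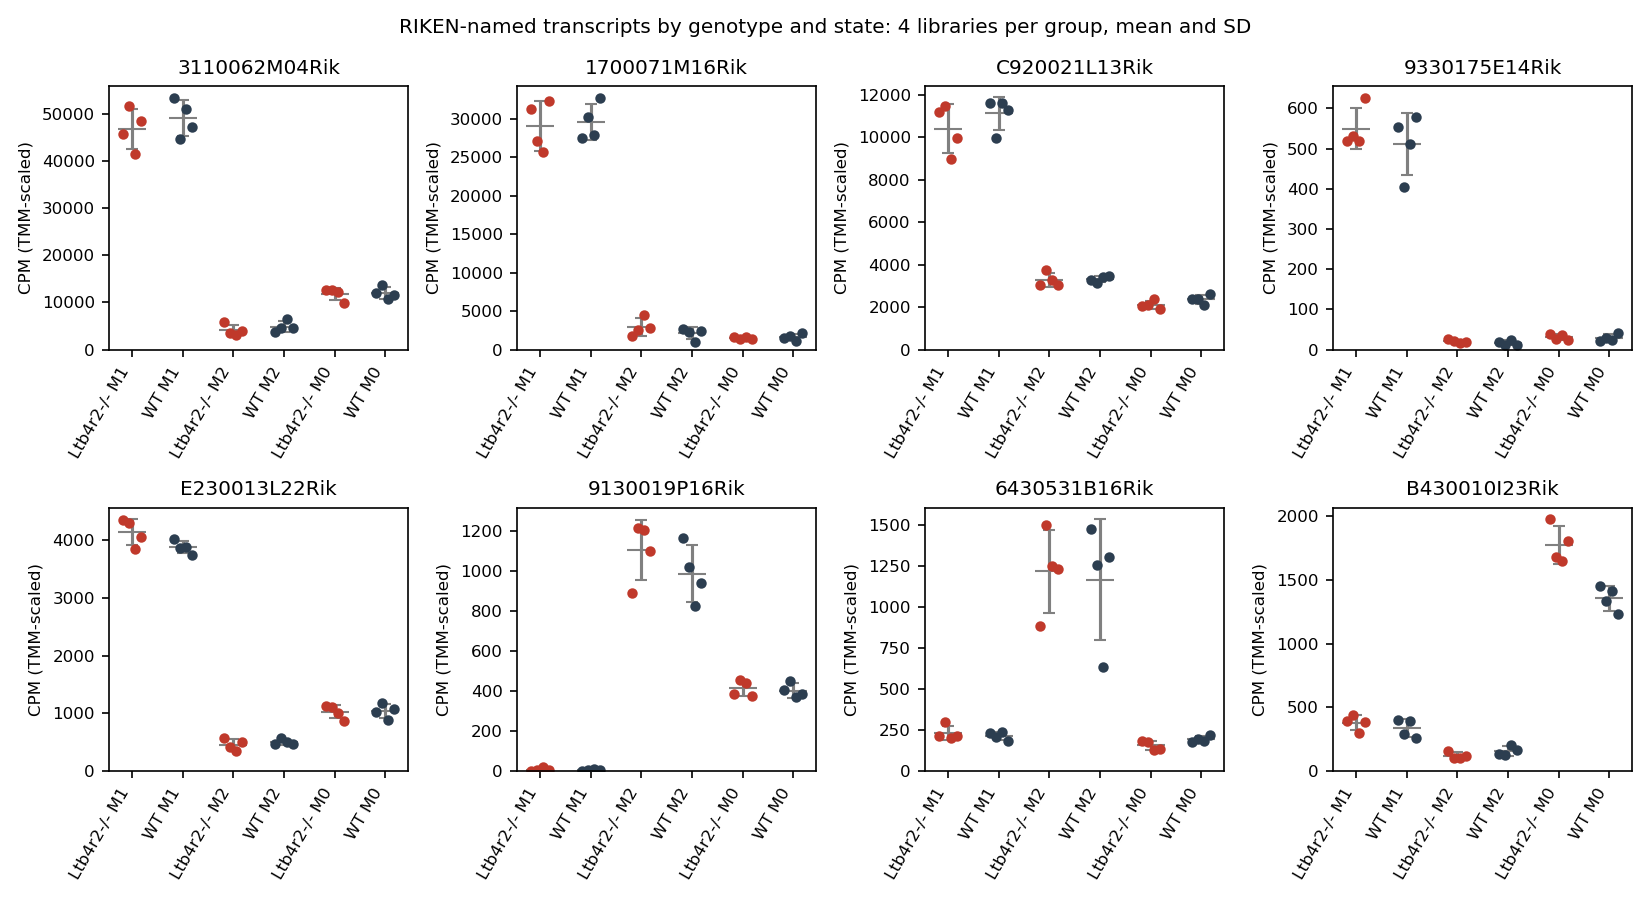
TMM-scaled CPM (y axes, linear from 0) of 8 members in the 6 groups (x axes), with 1 point per library and the mean and SD of 4 libraries in grey. Every M1 library of the first 5 members lies above all M2 and M0 libraries, 9130019P16Rik is at 0 to 18.7 CPM in all M1 libraries, and B430010I23Rik is highest in Ltb4r2-/- M0.

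The second comparison asked what IL-4 changed. In Ltb4r2-/- cells 31 of 154 members rose in M2 relative to M0 (20.1%, against 16.9% of 3047 genes) and 29 fell (18.8%, against 15%). In WT cells 30 rose (19.5%, against 15.2%) and 18 fell (11.7%, against 11.8%). Of these, 26 rose in both genotypes (83.9% of those in Ltb4r2-/- and 86.7% of those in WT), 16 fell in both (55.2% and 88.9%), none was called in opposite directions and 88 were called in neither. The lower count of falls in WT cells is not a tested difference, since no member passed the interaction test below. The members' median log2 fold change was -0.10 in Ltb4r2-/- and 0.01 in WT cells, beside 0.00 for all genes in both.

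6430531B16Rik, annotated as protein-coding with 991 bp opposite the predicted gene Gm16201, had the largest rise in M2. It had 884, 1502, 1249 and 1232 CPM in Ltb4r2-/- M2 and 1476, 1257, 633 and 1305 CPM in WT M2, against 186, 179, 131 and 136 CPM in Ltb4r2-/- M0 and 175, 197, 182 and 218 CPM in WT M0. All M2 libraries lay above all M0 libraries, replicate 3 of WT M2 being the lowest, and the log2 fold change was 2.95 ± 0.20 in Ltb4r2-/- cells and 2.60 ± 0.19 in WT cells (adjusted p = 7.24e-14 and 1.63e-12). Its M1 levels were 231 ± 44.5 CPM in Ltb4r2-/- and 214 ± 24.8 CPM in WT cells.

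A430057M04Rik, antisense to the catechol-O-methyltransferase domain gene Comtd1, had 1316, 1492, 1564 and 1569.6 CPM in Ltb4r2-/- M2 and 1550.4, 1342, 1072 and 1357 CPM in WT M2, against 453, 596, 538 and 638 CPM in Ltb4r2-/- M0 and 542, 713, 528 and 672 CPM in WT M0. It rose by 1.41 ± 0.16 in Ltb4r2-/- cells and 1.12 ± 0.16 in WT cells, and the Comtd1 row rose by 1.46 and 0.98. In M1 the same member was lower than in M0, with log2 fold changes of -1.03 ± 0.17 in Ltb4r2-/- cells and -1.08 ± 0.16 in WT cells, whereas Comtd1 had -0.29 and 0.10 (adjusted p = 0.421 and 0.793).

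9130019P16Rik, nearly without counts in M1, had 889.9, 1214, 1205 and 1098 CPM in Ltb4r2-/- M2 and 1162, 1018, 824 and 937 CPM in WT M2, above every M0 library, and log2 fold changes of 1.41 ± 0.16 in Ltb4r2-/- cells and 1.29 ± 0.16 in WT cells against M0. The abundant 4930404N11Rik, opposite Mfsd12, averaged 12122 ± 557 CPM in Ltb4r2-/- M2 and 12299 ± 372 CPM in WT M2, against 7007 ± 391 CPM in Ltb4r2-/- M0 and 7609 ± 849 CPM in WT M0, with log2 fold changes of 0.79 ± 0.08 in Ltb4r2-/- cells and 0.69 ± 0.08 in WT cells. Its M1 log2 fold changes were 0.14 ± 0.08 in Ltb4r2-/- cells and -0.09 ± 0.08 in WT cells (adjusted p = 0.128 and 0.347). 2610020C07Rik (opposite Gspt1, a translation termination factor gene) had log2 fold changes of 1.14 ± 0.12 in Ltb4r2-/- cells and 0.87 ± 0.12 in WT cells, 6430562O15Rik (opposite Mrps27, a mitochondrial ribosomal protein gene) of 1.20 ± 0.13 in Ltb4r2-/- cells and 0.93 ± 0.13 in WT cells, 4933416M07Rik of 1.08 ± 0.13 in Ltb4r2-/- cells and 1.07 ± 0.13 in WT cells and 1700088E04Rik (protein-coding, opposite Micall1, an endosomal recycling gene) of 0.81 ± 0.13 in Ltb4r2-/- cells and 0.98 ± 0.13 in WT cells.

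B430010I23Rik had the largest fall in M2. It had 157, 102, 100.1 and 122 CPM in Ltb4r2-/- M2 and 136, 125, 206 and 165 CPM in WT M2, against 1973, 1679.6, 1647 and 1802 CPM in Ltb4r2-/- M0 and 1450.1, 1330.1, 1412 and 1232 CPM in WT M0, with log2 fold changes of -3.87 ± 0.17 in Ltb4r2-/- cells and -3.10 ± 0.16 in WT cells (adjusted p = 5.85e-19 and 1.27e-16). The Mtus1 row, with 280 counts in all, had -3.38 and -2.18. E230016M11Rik had log2 fold changes of -1.71 ± 0.14 in Ltb4r2-/- cells and -1.61 ± 0.14 in WT cells and 1700113A16Rik of -0.96 ± 0.10 in Ltb4r2-/- cells and -0.80 ± 0.10 in WT cells. Both were lower in M1 than in M0 as well. For 6430531B16Rik, A430057M04Rik, 9130019P16Rik and B430010I23Rik, the M2 library nearest M0 was replicate 1 in Ltb4r2-/- and replicate 3 in WT cells. Across genes, the deviations of these libraries from their group means correlated at 0.174. Not every named member went that way, since 1700113A16Rik was highest in replicate 4 of WT M2. A common source of these deviations was not tested.

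3110062M04Rik, high in M1, averaged 4074 ± 1226 CPM in Ltb4r2-/- M2 and 4857 ± 1123 CPM in WT M2, below every M0 library, with log2 fold changes of -1.53 ± 0.14 in Ltb4r2-/- cells and -1.30 ± 0.14 in WT cells. E230013L22Rik was likewise higher in M1 and lower in M2 than in M0, at -1.16 ± 0.12 in Ltb4r2-/- cells and -1.04 ± 0.12 in WT cells in M2, and its partner Rab20 had -1.81 and -1.50. 0610039K10Rik fell in M2 too, at -1.53 ± 0.10 in Ltb4r2-/- cells and -1.21 ± 0.10 in WT cells. Weaker falls were those of 4931431C16Rik (opposite Acox3, a peroxisomal acyl-CoA oxidase gene), at -0.81 ± 0.10 in Ltb4r2-/- cells and -0.65 ± 0.10 in WT cells, and of D330041H03Rik (opposite Abca3, a lipid transporter gene), at -0.56 ± 0.10 in Ltb4r2-/- cells and -0.28 ± 0.10 in WT cells. The WT call for D330041H03Rik was lost without WT M2 replicate 1 (-0.25), without WT M2 replicate 2 (-0.26) and without WT M0 replicate 2 (-0.24). With all libraries kept, it was also lost with no filter on low counts (-0.32).

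**Figure D3:**
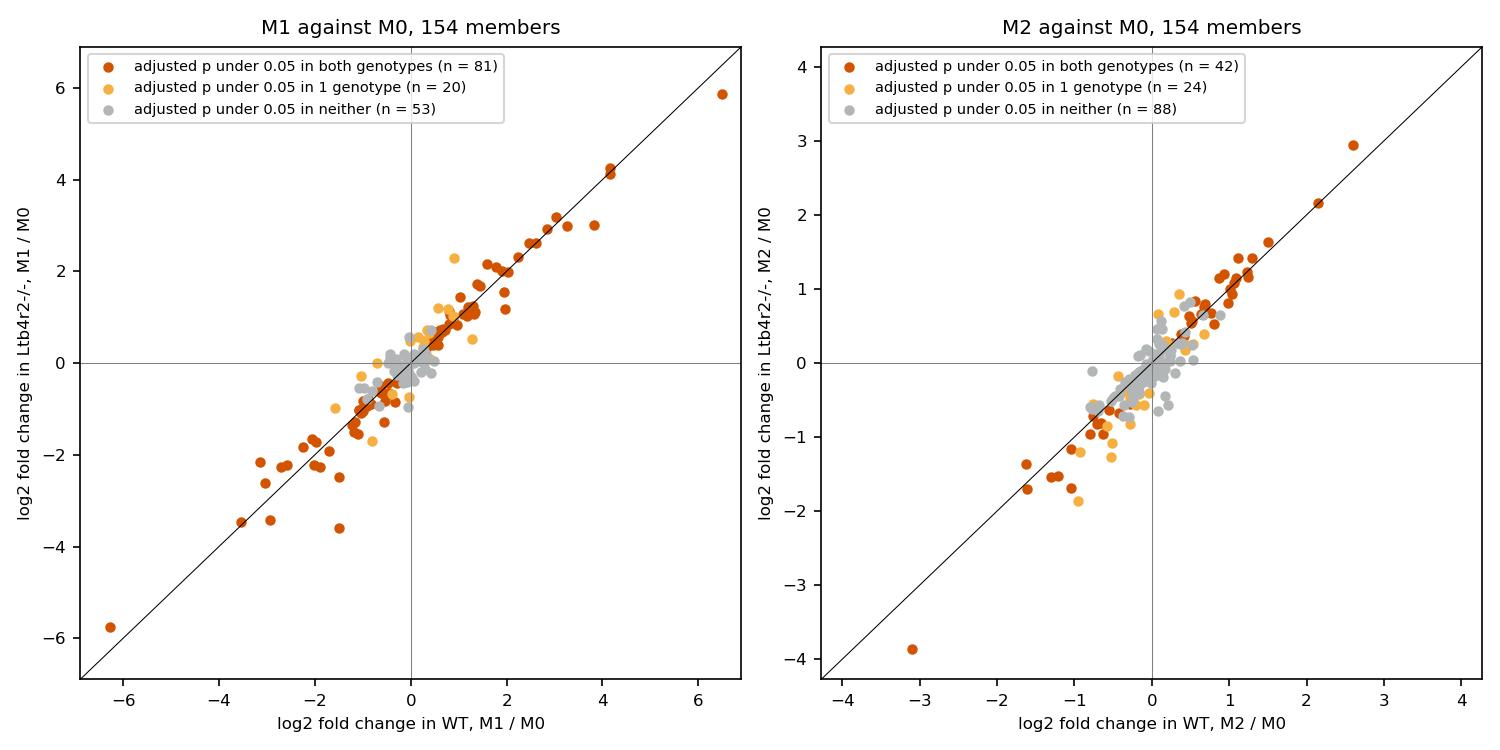
Log2 fold change of each of the 154 members in Ltb4r2-/- cells (y axes) against that in WT cells (x axes), for M1 against M0 (left) and M2 against M0 (right), with the line of equal change. Points called in both genotypes (81 and 42) lie near the line, and no member is called in opposite directions.

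Across the 154 members, log2 fold changes in Ltb4r2-/- and WT cells were correlated at a Pearson r of 0.963 for M1 against M0 and 0.944 for M2 against M0. These values are across transcripts, which are not replicates, and describe 2 sets of libraries that do not overlap. A change of at least 2-fold passed the test for 57 members in Ltb4r2-/- cells (37%, against 40.2% of 3047 genes) and 51 in WT cells (33.1%, against 38.4%) in M1, and for 23 in Ltb4r2-/- cells (14.9%, against 19.2%) and 18 in WT cells (11.7%, against 15.2%) in M2.

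M1 was also set directly against M2. In Ltb4r2-/- cells 54 members were higher in M1 than in M2 (35.1%, against 26.4% of 3047 genes) and 41 were lower (26.6%, against 26.5%). In WT cells 47 were higher (30.5%, against 26.2%) and 46 lower (29.9%, against 26.3%). Under total count scaling these became 31 higher (20.1%, against 16.3%) and 82 lower (53.2%, against 44.1%) in Ltb4r2-/- cells, and 27 higher (17.5%, against 15.7%) and 85 lower (55.2%, against 43.4%) in WT cells. The widest separation was that of 9130019P16Rik, with log2 fold changes of -7.18 ± 0.27 in Ltb4r2-/- cells and -7.56 ± 0.29 in WT cells. 3110062M04Rik had 3.52 ± 0.15 in Ltb4r2-/- cells and 3.34 ± 0.15 in WT cells, 9330175E14Rik had 4.70 ± 0.21 in Ltb4r2-/- cells and 4.84 ± 0.21 in WT cells, and E230013L22Rik had 3.17 ± 0.12 in Ltb4r2-/- cells and 2.94 ± 0.12 in WT cells. 1110002L01Rik, the antisense row over Kif3c, averaged 687 ± 34.8 CPM in Ltb4r2-/- M1 and 667 ± 82.9 CPM in WT M1, against 144 ± 24.2 CPM in Ltb4r2-/- M2 and 144 ± 36.2 CPM in WT M2. Lower in M1 were also 4933408J17Rik (opposite Snrpf, a spliceosomal protein gene), at -1.65 ± 0.16 in Ltb4r2-/- cells and -1.49 ± 0.15 in WT cells, and A530088E08Rik (opposite Rasal3, a Ras GTPase-activating protein gene), at -1.06 ± 0.14 in Ltb4r2-/- cells and -1.44 ± 0.14 in WT cells.

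By annotated kind, antisense members rose in M1 in 26 of 65 cases and fell in 16 in Ltb4r2-/- cells, and rose in 23 and fell in 15 in WT cells. Of 28 processed transcripts 7 rose and 10 fell in Ltb4r2-/- cells, and 5 rose and 11 fell in WT cells. Of 31 protein-coding members 9 rose and 7 fell in Ltb4r2-/- cells, and 9 rose and 8 fell in WT cells, and of 11 lincRNAs 3 rose and 5 fell in each genotype. Over all 3047 genes, 27.1% rose and 25.7% fell in Ltb4r2-/- cells, and 26.9% rose and 24.3% fell in WT cells. Whether these kinds differ was not tested. Members whose opposite-strand gene was tested as well numbered 51. In M1, both rows were called in 18 of these pairs in Ltb4r2-/- cells, 12 in the same and 6 in opposite directions, and in 16 pairs in WT cells, 8 in the same and 8 in opposite directions. In M2, both were called in 11 pairs in Ltb4r2-/- cells, 7 in the same direction, and in 6 pairs in WT cells, 4 in the same direction. Taken singly, 31 members and 24 partners were called in M1 in Ltb4r2-/- cells, and 28 and 27 in WT cells. In M2 these were 24 and 17, and 18 and 11. Over the 51 pairs, log2 fold changes of member and partner correlated at a Pearson r of 0.49 (Ltb4r2-/-) and 0.46 (WT) in M1. In M2 the values were 0.56 and 0.43. These are across pairs, which are not replicates.

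The third comparison asked what loss of BLT2 changed within a state. No member passed the adjusted threshold with edgeR's quasi-likelihood test in any state. In M1, 136 members were tested and 0 called, against 0.0509% of 1963 genes, and 17 had an unadjusted p under 0.05 (12.5%, against 7.49%), 14 of them higher (10.3%, against 4.89%) and 3 lower (2.21%, against 2.6%). In M2, 148 were tested and 0 called, against 0.19% of 2110 genes, and 3 had an unadjusted p under 0.05 (2.03%, against 2.99%). In M0, 150 were tested and 0 called, against 0.131% of 2283 genes, and 8 had an unadjusted p under 0.05 (5.33%, against 5.91%). DESeq2 called 0 members in M1 (against 0.0509% of genes), 0 in M2 (against 0.237%) and 1 in M0 (against 0.219%), which was B430010I23Rik. Without a filter on low counts, edgeR called 5 of 154 members in M1 (against 0.209% of 11007 genes), 1 in M2 (against 0.06% of 11673) and 0 in M0 (against 0.128% of 11679). The 5 in M1 are described below with the library that held their highest values. The 1 in M2 was 1700071M16Rik, with 1807, 2507, 4557 and 2822 CPM in Ltb4r2-/- M2 and 2689.8, 2313, 963 and 2436 CPM in WT M2, groups that overlap (log2 fold change 0.47, adjusted p = 0.0404 without the filter and 0.999 with it).

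B430010I23Rik had the smallest p in M0. It had 1973, 1679.6, 1647 and 1802 CPM in Ltb4r2-/- M0, against 1450.1, 1330.1, 1412 and 1232 CPM in WT M0, and every Ltb4r2-/- library lay above every WT library. The log2 fold change was 0.38 ± 0.09 (adjusted p = 0.139 with edgeR), and the exact two-sided permutation test of 4 against 4 libraries gave p = 0.0286, the smallest that 70 arrangements allow. 0610039K10Rik averaged 11962 ± 486 CPM in Ltb4r2-/- M0 and 10240.2 ± 844 CPM in WT M0, with a log2 fold change of 0.21 ± 0.06 (adjusted p = 0.272). 9330020H09Rik, antisense to the cyclin gene Ccnt1, averaged 327 ± 9.74 CPM in Ltb4r2-/- M0 and 253 ± 18.1 CPM in WT M0, with 0.36 ± 0.10 (adjusted p = 0.339). Groups did not overlap for 5 of 150 members in M0 (3.33%, against 3.5% of 2283 genes), the others being 1700030K09Rik and 1700088E04Rik, named after their values were seen.

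In M1 the smallest p was that of A930015D03Rik, antisense to H2-T22, with 192, 222, 215 and 203 CPM in Ltb4r2-/- M1, against 264, 293, 387 and 283 CPM in WT M1. All Ltb4r2-/- libraries lay below all WT libraries, with a log2 fold change of -0.54 ± 0.15 (adjusted p = 0.463). 4930592A05Rik, antisense to the carboxypeptidase gene Cpq, had 989, 1067, 752 and 879 CPM in Ltb4r2-/- M1, against 1025, 1329, 1208 and 1349 CPM in WT M1, with -0.40 ± 0.12 (adjusted p = 0.463). 4930539J05Rik, antisense to the ubiquitin-conjugating enzyme gene Ube2d3, had 566, 483, 1122 and 605 CPM in Ltb4r2-/- M1, against 466, 462, 408 and 415 CPM in WT M1, with 0.69 ± 0.20 (adjusted p = 0.463).

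Replicate 3 of Ltb4r2-/- M1 was the highest library for 4930539J05Rik and for most members that were higher in Ltb4r2-/- M1. Of the 14 members higher in Ltb4r2-/- M1 at an unadjusted p under 0.05, 13 had their highest Ltb4r2-/- M1 value in replicate 3, whereas that library was the highest of the 4 for 26.5% of members tested and 25.8% of all genes. Without it 5 members were higher and 5 lower at that level, instead of 14 and 3. For this refit and the others that leave out an M1 library, the share of all genes is not given. Whether the drop is particular to the members was not tested. The 5 members called in M1 without a filter on low counts had 902 (2610206C17Rik), 1068 (4930413G21Rik), 1122 (4930539J05Rik), 665 (4931440P22Rik) and 810.3 CPM (D330050I16Rik) in replicate 3 of Ltb4r2-/- M1. The other 7 M1 libraries had 281 to 390.2 CPM of 2610206C17Rik, 219.8 to 367 CPM of 4930413G21Rik, 408 to 605 CPM of 4930539J05Rik, 153 to 297 CPM of 4931440P22Rik and 205 to 347 CPM of D330050I16Rik. A similar set of rows was high in a pair of M0 libraries. Of the same 14 members, 11 had their highest Ltb4r2-/- M0 value in replicate 4 and 11 their highest WT M0 value in replicate 3, whereas these libraries were the highest of their groups for 30.9% and 25% of the 136 members tested. D330050I16Rik, for example, had 259.6, 338, 243 and 788 CPM in Ltb4r2-/- M0 and 267, 217, 602 and 323 CPM in WT M0. Each of these 3 libraries had the highest TMM factor of its group. The factor was 0.842 in Ltb4r2-/- M1 replicate 3, beside 0.726 to 0.766 in the rest of that group. It was 1.24 in Ltb4r2-/- M0 replicate 4 (beside 1.13 to 1.15) and 1.23 in WT M0 replicate 3 (beside 1.10 to 1.16). Across genes, deviations from the group mean in Ltb4r2-/- M0 replicate 4 correlated at 0.175 with the first library and 0.191 with the last. Why these libraries deviate was not tested. Leaving out another M1 library gave 6 to 18 higher, the 6 being without WT M1 replicate 4, and 3 to 6 lower. Groups did not overlap for 9 of 136 members in M1 (6.62%, against 3.62% of 1963 genes).

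In M2 the 3 smallest p belonged to A530088E08Rik, with 634 ± 53.1 CPM in Ltb4r2-/- M2 and 772 ± 83.3 CPM in WT M2, to 1700012D01Rik, with 18.9 ± 4.58 CPM in Ltb4r2-/- M2 and 35.5 ± 11 CPM in WT M2, and to 1700065D16Rik, with 30.9 ± 5.72 CPM in Ltb4r2-/- M2 and 15.5 ± 10.5 CPM in WT M2 (SD, n = 4 each). All 3 had an adjusted p of 0.999. Groups did not overlap for 1 of 148 members in M2 (0.676%, against 2.18% of 2110 genes), which was 3110002H16Rik, named after its values were seen.

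Of the members on chromosome 14, 3 lie within 10 Mb of Ltb4r2. Loci that close are often inherited together, and whether this stretch differs between the genotypes used here was not tested. 4930579G18Rik and 1700123O20Rik, both over exons of the splicing factor gene Acin1, and 4931440J10Rik, over the Integrator subunit gene Ints6, are in that range. In M1, 4930579G18Rik averaged 869 ± 126 CPM in Ltb4r2-/- and 981 ± 62.8 CPM in WT cells. In M0 it averaged 1015 ± 34.7 CPM in Ltb4r2-/- and 1049 ± 75.8 CPM in WT cells. 1700123O20Rik averaged 455 ± 43.2 CPM in Ltb4r2-/- M1 and 405 ± 37.2 CPM in WT M1, and 4931440J10Rik averaged 105 ± 31.6 CPM in Ltb4r2-/- M1 and 133 ± 18.1 CPM in WT M1. None of the 3 was called between genotypes in any state.

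**Figure D4:**
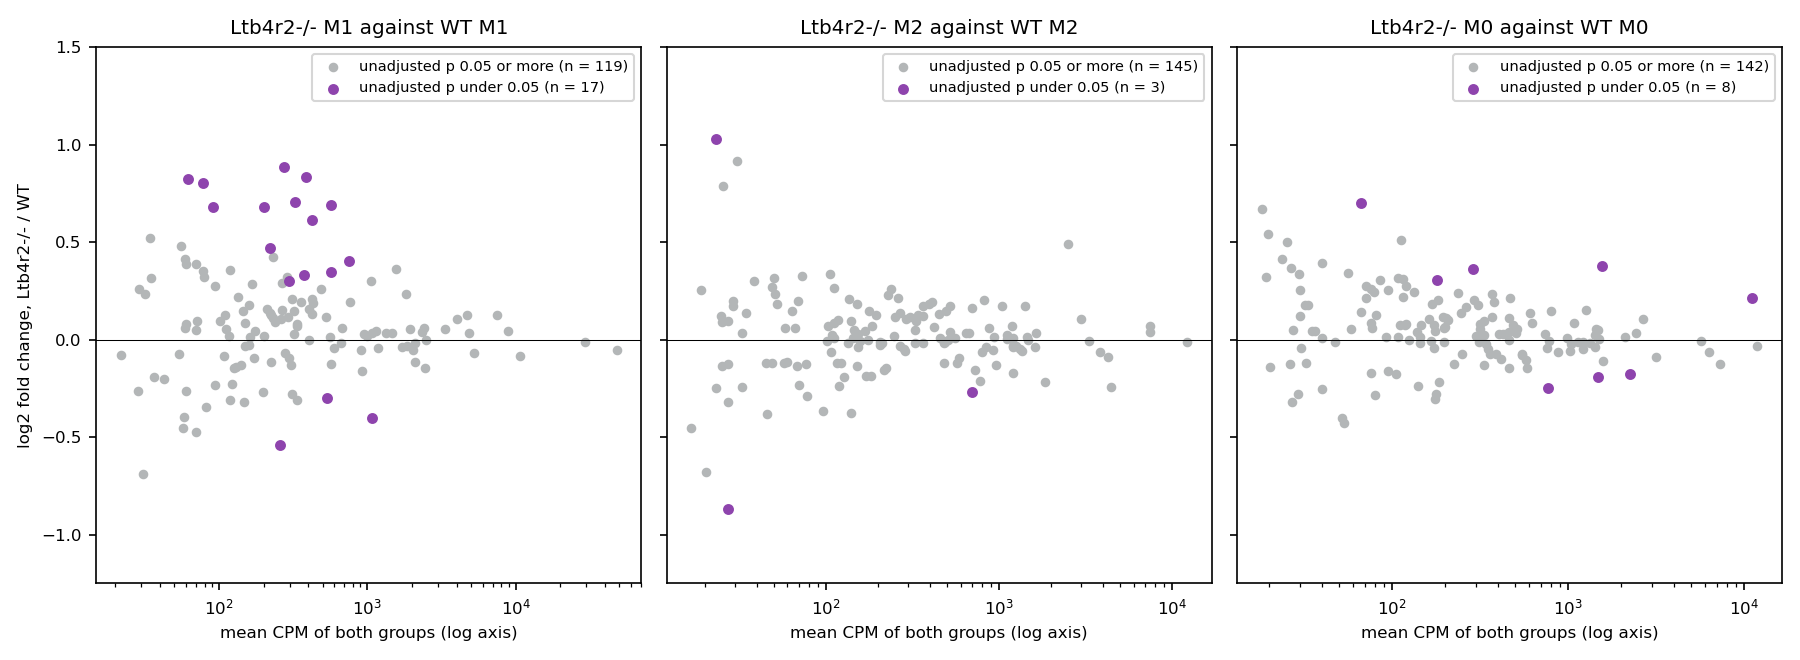
Log2 fold change of Ltb4r2-/- against WT (y axes) for the members tested in M1, M2 and M0 (136, 148 and 150 points), against the mean CPM of both groups (x axes, log scale), with members at an unadjusted p under 0.05 in purple (17, 3 and 8). None passed the adjusted threshold, and the spread widens at low CPM.

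Last, the genotype effect was compared between states, as the interaction of genotype with M1 or M2 relative to M0. No member passed the adjusted threshold in either (edgeR, 154 tested each, against 0.0328% of 3047 genes in each), and DESeq2 called 0 in both (against 0.0328% of genes in each). Without a filter on low counts, edgeR called 0 members for M1 (against 0.0729% of 13709 genes) and 1 for M2 (against 0.0657%), which was 1700071M16Rik at 0.59 ± 0.12 (adjusted p = 0.000953). At an unadjusted p under 0.05 there were 6 members for M1 (3.9%, against 4.63%) and 5 for M2 (3.25%, against 4.73%). The smallest p for M2 was that of B430010I23Rik, whose interaction was -0.77 ± 0.22 on the log2 scale (adjusted p = 0.586). Its level in Ltb4r2-/- M2 was 120.2 ± 26.1 CPM against 158 ± 36.2 CPM in WT M2, opposite in direction to its M0 difference. 0610039K10Rik and 1700034P13Rik (opposite Vcpip1, a deubiquitinase gene) followed, at -0.32 ± 0.14 and -0.30 ± 0.14. For M1 the 3 smallest were 1700094J05Rik (opposite the pericentrin gene Pcnt) at -0.52 ± 0.18, C130083M11Rik at -0.998 ± 0.41 and 6330409D20Rik (opposite the adaptor gene Sh2d3c) at -0.74 ± 0.31, each with an adjusted p of 0.992.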

How the data were processed

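RNA of 24 BMDM samples was sequenced by the authors as strand-specific polyA libraries on a NovaSeq. Per the paper's methods, reads were trimmed with cutadapt, aligned to mm10 with STAR and counted with HTSeq. Versions and the strand setting are not given in the sources used here. The deposited counts are whole reads per gene, not normalized, and were used as deposited. The deposited log2 values, normalized by DESeq2, were not used.

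Genes were kept by filterByExpr (minimum count 10, minimum total 15), scaled by TMM and tested with edgeR's quasi-likelihood test, adjusted by Benjamini-Hochberg over all genes tested (threshold 0.05; R 4.3.3, edgeR 4.0.16, limma 3.58.1). Genotypes were compared in the 8 libraries of a state. States and interactions were tested in 1 fit of 24 libraries. Standard errors were obtained from each log2 fold change and its F statistic (change over √F). CPM is on the TMM scale of 24 libraries. For single members, an exact permutation test over the 70 ways to split 8 libraries was used. Exon overlaps came from GENCODE M21. The fits were tested on simulated counts with known fold changes. Tables and figures used Python 3.11.15.

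The members and lists were chosen with earlier results of these data known. Named were the 8 members with the smallest p in each direction for each pair of states, the 3 with the smallest p for each genotype comparison and interaction, the 5 highest totals and those within 10 Mb of Ltb4r2. Alternatives were RLE scaling, total count, no filter on low counts, a minimum mean of 50 counts, DESeq2 1.42.0, the replicate number as a block, other sets of libraries and each library left out. A further motif fixed for the start regions is not reported here.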

Additional observations from a re-analysis of the deposited data

Results flagged for a closer look

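Each of the 41 named members was screened in each group of 4 libraries for a library whose gap to its nearest neighbour was, as a share of the group's range, above Dixon's 95% critical value for 4 values. This picked out 9 of 246 groups, and chance picks about 1 in 20 groups. 1700055D16Rik was high in WT M0 replicate 3, at 32.6 CPM beside 19.3 to 20.4 CPM in the other libraries of that group. 1700113A16Rik was high in WT M2 replicate 4, at 843 CPM beside 738 to 753 CPM in the other libraries of that group. 3110062M04Rik was low in Ltb4r2-/- M0 replicate 4, at 9924 CPM beside 12173 to 12581 CPM in the other libraries of that group. 4931431C16Rik was low in WT M2 replicate 2, at 1351 CPM beside 1716 to 1760.0 CPM in the other libraries of that group. 4933408J17Rik was low in WT M2 replicate 3, at 511 CPM beside 713 to 731 CPM in the other libraries of that group. 9330020H09Rik was low in WT M1 replicate 4, at 288 CPM beside 343 to 351 CPM in the other libraries of that group. 9330020H09Rik was high in Ltb4r2-/- M2 replicate 2, at 318 CPM beside 214 to 231 CPM in the other libraries of that group. 9330175E14Rik was high in Ltb4r2-/- M1 replicate 4, at 625 CPM beside 519 to 533 CPM in the other libraries of that group. A930015D03Rik was low in WT M0 replicate 3, at 54.3 CPM beside 85.5 to 90 CPM in the other libraries of that group. No library was picked out more than 2 times.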

How the results depend on the processing

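Leaving out each library in turn gave 89 to 95 members called for M1 against M0 in Ltb4r2-/- cells and 78 to 87 in WT cells, 51 to 57 and 38 to 51 for M2 against M0, 87 to 95 and 85 to 91 for M1 against M2, and 0 throughout for the genotype comparisons and interactions. With all libraries kept, 61.0% of members were called for M1 against M0 in Ltb4r2-/- cells (against 52.8% of 3047 genes). In WT cells 57.1% were called (against 51.2%). For M2 against M0 the shares were 39.0% (against 32.0%) in Ltb4r2-/- and 31.2% (against 27.0%) in WT cells. Shares of all genes in these refits, and with the block below, are not given here. DESeq2 called 1 member between genotypes in M0 (B430010I23Rik, log2 fold change 0.37). Without a filter on low counts 5 members were called in M1 (2610206C17Rik, 4930413G21Rik, 4930539J05Rik, 4931440P22Rik and D330050I16Rik), 1 in M2 and 1 for the M2 interaction, the last 2 being 1700071M16Rik; the cause was not tested. The highest M1 value of each of those 5 was in replicate 3 of Ltb4r2-/- M1. No named member changed direction in the comparison it was named for under any alternative run. The replicate number as a block gave 95 and 89 members for M1 against M0 in Ltb4r2-/- and WT cells, instead of 94 and 88, 58 and 47 for M2 against M0, instead of 60 and 48, and 0 for every genotype comparison and interaction. Between genotypes in the same state, libraries with the same number correlated at -0.209 to 0.095 (12 pairs). Between states of the same genotype they correlated at -0.069 to 0.136 (24 pairs, 21 above 0 and 5 over 0.1, median 0.051), beside a median of -0.020 for 72 pairs with different numbers. Those 72 pairs ran from -0.143 to 0.175, so the highest value was in a pair with different numbers. A library correlated best with its own number in 28 of 48 cases, and in both other states for 7 of 24 libraries. This is a hint from the data that numbers may be shared across states. The column headers of the counts likewise join the number to the genotype, with the state after it. Not every pair was over 0.1 and the labels do not say what a number marks, so the fit without the block was kept. If a number marks an animal, that fit leaves the pairing out of the state comparisons and interactions. The share of members with an opposite-strand exon was 81.6% where at least 100 bp had to overlap and 98.6% for overlapping gene bodies. Each group had 4 libraries of 427825 to 729580 counts, and a p that missed the threshold does not show that values did not differ.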
